A study of Homo sapiens with 15 samples.

Results

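The DNA replication machinery was followed here through 55 genes, taken by symbol from a list of replication factors that was drawn up with earlier results of these data known. All 55 were present among the 16768 gene symbols of the vehicle and saracatinib libraries and among the 16295 symbols of the untreated libraries. By role, 9 of them act in origin licensing, 14 in the replicative helicase and its activation, 9 in the sliding clamp, its loader and the single-strand binding protein RPA, and 9 in the polymerases and primase. A further 4 act in strand maturation and topology, 5 in nucleotide supply, 2 in maintenance methylation, and 3 are E2F transcription factors.

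The study sequenced total RNA from A375, a human melanoma cell line, in 5 groups of 3 libraries. In the first experiment, cells overexpressing VAV1 were given saracatinib, an inhibitor of SRC family kinases, or vehicle, and cells with an empty vector were given vehicle. In the second experiment, cells carrying RAC1 P29S and cells with an empty vector were left untreated. VAV1, a substrate of SRC family kinases, exchanges guanine nucleotides on small GTPases, and P29S is an activating substitution in the GTPase RAC1. The 3 RAC1 P29S samples were placed by their titles, because their genotype label gives the empty vector. The promoter driving each construct, the dose and duration of saracatinib, and whether each line is 1 clone or a pool are not given in the labels. No group of empty-vector cells received saracatinib, so the inhibitor was compared with vehicle in VAV1 cells alone.

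Replication starts when the origin recognition complex, CDC6 and CDT1 load the ring-shaped MCM helicase onto DNA in G1. Kinases, CDC45 and the GINS complex then turn the helicase on in S phase, primase and the polymerases copy both strands, and a sliding clamp holds the polymerases to their template. Most of these genes are transcribed in a burst at the start of S phase under the E2F factors, which RB holds back in resting cells. In melanoma the cyclin D kinases that release E2F are driven by the MAPK pathway, which an activating BRAF mutation keeps on in A375.

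Promoter windows from RefSeq on GRCh38.p14, running from 250 bases before to 50 bases after each start, were found for 47 of the 55 genes, as 64 windows. MCM4, MCM5, GINS4, RPA2, RPA3, POLD3, DNA2 and E2F8 were not among them. The windows were searched on both strands for 4 spellings of the E2F site, TTTCCCGC, TTTCGCGC, TTTGCCGC and TTTGGCGC, which can overlap one another. A match was found in 26 of the 64 windows (40.6%), against 3.31% of all 35116 windows of that length in the table. By gene, 25 of 47 held a match (53.2%), against 3.99% of 27305 genes. The CCAAT box, searched as CCAAT, was in 51.6% of the replication windows and 34.6% of all windows, and the cell cycle homology region, searched as TTTGAA, was in 6.25% and 15.2%. The full set of windows was neither limited to the genes tested for expression nor matched for base composition. The part of base composition in these shares was not tested. The E2F letters were in 8 of 11 helicase genes with a window, 4 of 9 licensing genes, 4 of 8 polymerase genes, both methylation genes and both E2F genes with a window. They were in 2 of 7 clamp and RPA genes, 1 of 3 maturation genes and 2 of 5 nucleotide genes.

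The 150 bases before a start are shown for 5 genes with a match that changed in the comparisons below, 1 from each of 5 roles. ORC4 is also shown, in 1 of its windows. It has no match in any window and was the single licensing gene with a positive change with saracatinib. ORC1, ORC2 and ORC6 also have no match, and they fell with saracatinib. ORC5, without a match, and ORC3, with a match, did not pass that test. Capitals mark the E2F matches on either strand that lie whole within the shown bases. Each sequence is given 5′ to 3′ on the strand of its gene. They lie at chr16:88803639-88803788 on the plus strand (CDT1), chr2:135876444-135876593 on the minus strand (MCM6), chr12:132687343-132687492 on the minus strand (POLE), chr19:4909351-4909500 on the plus strand (UHRF1), chr1:23531234-23531383 on the minus strand (E2F2) and chr2:148020738-148020887 on the minus strand (ORC4). A match is a run of letters and not a measured binding site.
CDT1: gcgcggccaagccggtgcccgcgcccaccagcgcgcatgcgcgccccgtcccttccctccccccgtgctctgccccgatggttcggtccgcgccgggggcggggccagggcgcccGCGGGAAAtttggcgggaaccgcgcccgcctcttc
MCM6: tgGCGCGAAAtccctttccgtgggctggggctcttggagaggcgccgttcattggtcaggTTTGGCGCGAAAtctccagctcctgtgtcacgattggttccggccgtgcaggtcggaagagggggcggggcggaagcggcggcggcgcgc
POLE: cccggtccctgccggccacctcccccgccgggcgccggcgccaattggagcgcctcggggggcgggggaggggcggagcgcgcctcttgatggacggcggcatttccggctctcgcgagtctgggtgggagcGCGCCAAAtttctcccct
UHRF1: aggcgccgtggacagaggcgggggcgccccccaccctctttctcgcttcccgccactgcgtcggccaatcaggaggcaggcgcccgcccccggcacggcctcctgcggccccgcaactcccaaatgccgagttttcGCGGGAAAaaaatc
E2F2: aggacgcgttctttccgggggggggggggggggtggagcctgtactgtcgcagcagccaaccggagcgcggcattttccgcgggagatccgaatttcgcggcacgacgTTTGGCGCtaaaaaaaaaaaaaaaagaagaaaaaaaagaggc
ORC4: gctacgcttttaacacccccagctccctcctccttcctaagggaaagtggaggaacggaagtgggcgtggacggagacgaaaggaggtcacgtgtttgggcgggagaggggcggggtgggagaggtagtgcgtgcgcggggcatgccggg
In MCM6 the longer run of capitals holds overlapping matches that read toward each other. The shorter run belongs to another such pair, whose first match, TTTGGCGC at -152 to -145, is cut by the edge of the shown bases. Of the 42 genes with a window that were lower with saracatinib, 22 held the letters, and so did 3 of the 5 with a window that did not pass the test, ORC3, GINS3 and CDC7.

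The deposited values are log2 of a normalized count plus 1, and levels are given below on the linear scale. Normalized counts of all symbols added up to between 14443917.9 and 16262758.9 per library, and sequencing depth is not known because raw counts were not used here. VAV1 was at 17595, 18348 and 17657 normalized counts with saracatinib, 15579, 14839 and 15690 in VAV1 cells with vehicle, and 2.74 to 4.62 in empty-vector cells. RAC1 was at 30381 to 31705 in RAC1 P29S cells, against 3747 to 3821 in untreated empty-vector cells, as the titles say. Of the 8 melanocyte and melanoma markers, SOX10 lay between 1748 and 9824 in every library, while the pigment genes PMEL, MLANA, TYR and DCT did not exceed 43.8 where listed. TYR and DCT are listed in the untreated libraries alone, so the sums below cover 6 of the 8 markers in the first experiment and all 8 in the second. The summed level was 3580 to 3726 normalized counts with saracatinib, 2985 to 3127 in VAV1 cells with vehicle and 8993 to 9511 in empty-vector cells with vehicle. It was 5400.2 to 5808 in RAC1 P29S cells and 11218 to 12247 in untreated empty-vector cells. Single markers went both ways. Of the 5 tested as described below, 3 fell (60%) and 1 rose (20%) with VAV1, against 20.1% and 23.6% of all genes. With RAC1 P29S 3 also fell and 1 rose, against 15.5% and 15.6% of all genes. With saracatinib 3 rose and 1 fell, against 18.3% and 19.1%. Of 13 markers of other cell types, 10 are listed in the first experiment and 9 in the second, with CD3E, EPCAM and KRT5 in neither. Those listed summed to 400.7 or less in every library. The part of these shifts in the replication results was not tested.

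All 55 genes passed the filter on low values, which asked for 10 or more normalized counts in 3 or more libraries, and all exceeded 10 in every library, with a lowest value of 70.9 and a highest of 11236. Groups were compared with limma, and a gene is said to have risen or fallen where its p-value, adjusted by the Benjamini-Hochberg method over all genes tested (14410 in the first experiment, 14036 in the second), was under 0.05. Values after ± are SE. Within a group, the median SD of the 55 genes over 3 libraries was 0.06 to 0.08 on the log2 scale. The design text calls the libraries biological triplicates without saying that they came from separate cultures or transductions. The p-values set group differences against the spread between these libraries, and the level of replication behind that spread is not known. The 3 comparisons of the first experiment share libraries with one another, so their values stand side by side and are not independent.

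With saracatinib, 49 of the 55 genes fell relative to VAV1 cells given vehicle, none rose and 6 did not pass the test. Over all genes tested, 37.3% passed in this comparison, 19.1% lower and 18.3% higher. At an unadjusted p under 0.05, 51 of the replication genes were lower and 1, ORC4, was higher, against 23.3% and 22.3% of all genes. The median log2 fold change was -0.44 for the 55 genes and -0.01 for all genes, with a range of -0.79 for CDT1 to 0.16 for ORC4. In 50 of the 55 genes every saracatinib library lay below every vehicle library, which held for 25.3% of all genes, and in none did every saracatinib library lie above, against 24.1% of all genes. In these bulk libraries, fewer cells in S phase and less RNA of these genes per cell cannot be told apart. Without VAV1 vehicle library 3, ORC4 passed the test as the single gene that was higher.

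VAV1 cells given vehicle, against empty-vector cells given vehicle, had 18 of the 55 genes higher (32.7%), 5 lower (9.09%) and 32 that did not pass the test. Over all genes, 43.7% passed the test, 23.6% higher and 20.1% lower. The libraries did not overlap in 26 genes that were higher and 5 that were lower, against 28.2% and 24.5% of all genes. The median log2 fold change was 0.11 for the 55 genes and 0.02 for all genes. The count of lower genes was 3 without empty-vector library 3 or without VAV1 vehicle library 1.

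Saracatinib-treated VAV1 cells were also set against empty-vector cells given vehicle. Here 37 of the 55 genes were lower, 2 were higher (ORC4 and ORC5) and 16 did not pass the test, where 43.4% of all genes passed, 21% lower and 22.4% higher. The libraries did not overlap in 39 genes that were lower and 3 that were higher, against 25.6% and 27.2% of all genes. The median log2 fold change was -0.38 for the 55 genes and 0.00 for all genes. Averaged over the 55 genes, the saracatinib libraries lay -0.35, -0.35 and -0.32 from the empty-vector mean on the log2 scale, and the VAV1 vehicle libraries lay 0.12, 0.08 and 0.09 from it.

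RAC1 P29S cells differed from untreated empty-vector cells in 10 of the 55 genes. Of these, 3 were higher (5.45%) and 7 lower (12.7%), where 31.1% of all genes passed, 15.6% higher and 15.5% lower. Neither share of called replication genes thus exceeded the background. The median log2 fold change was -0.07 for the 55 genes and -0.00 for all genes. The libraries did not overlap in 5 of the 55 genes that were higher and 16 that were lower, against 22.6% and 22.4% of all genes. By this measure the share of lower genes was above the background. Without untreated empty-vector library 2, the count of higher genes was 5. Averaged over the 55 genes, the RAC1 P29S libraries lay -0.04, -0.08 and -0.01 from the empty-vector mean.

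**Figure D1:**
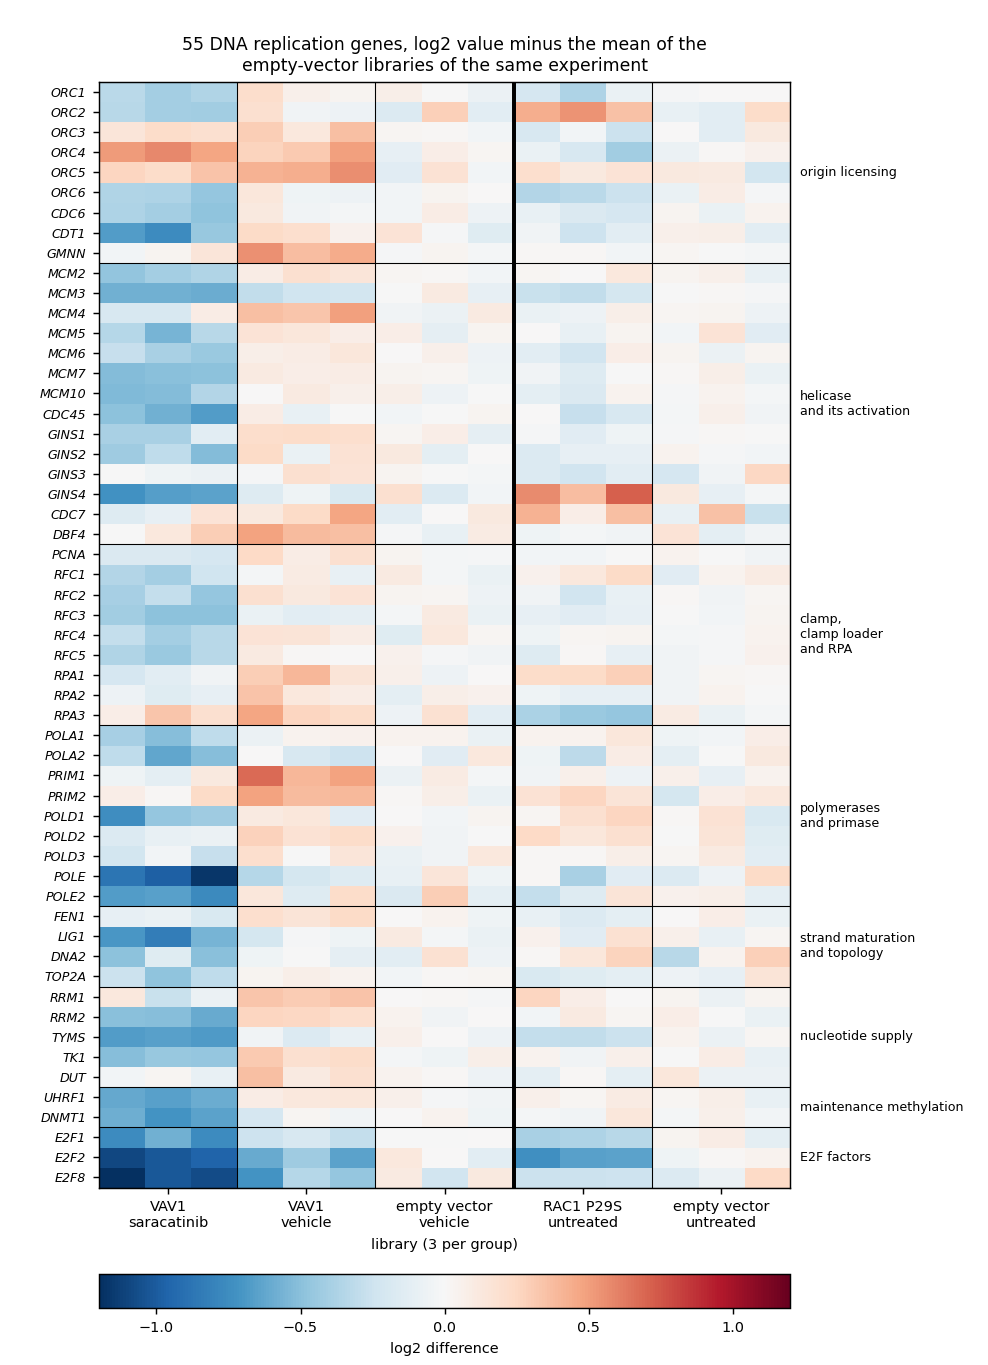
The 55 genes (rows, by role) in the 15 libraries (columns, 3 per group), coloured by the log2 value minus the mean of the empty-vector libraries of the same experiment. The saracatinib columns are blue over most rows, with ORC4 and ORC5 red, while the RAC1 P29S columns are pale apart from single rows such as GINS4, ORC2, RPA3 and E2F2.

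**Figure D2:**
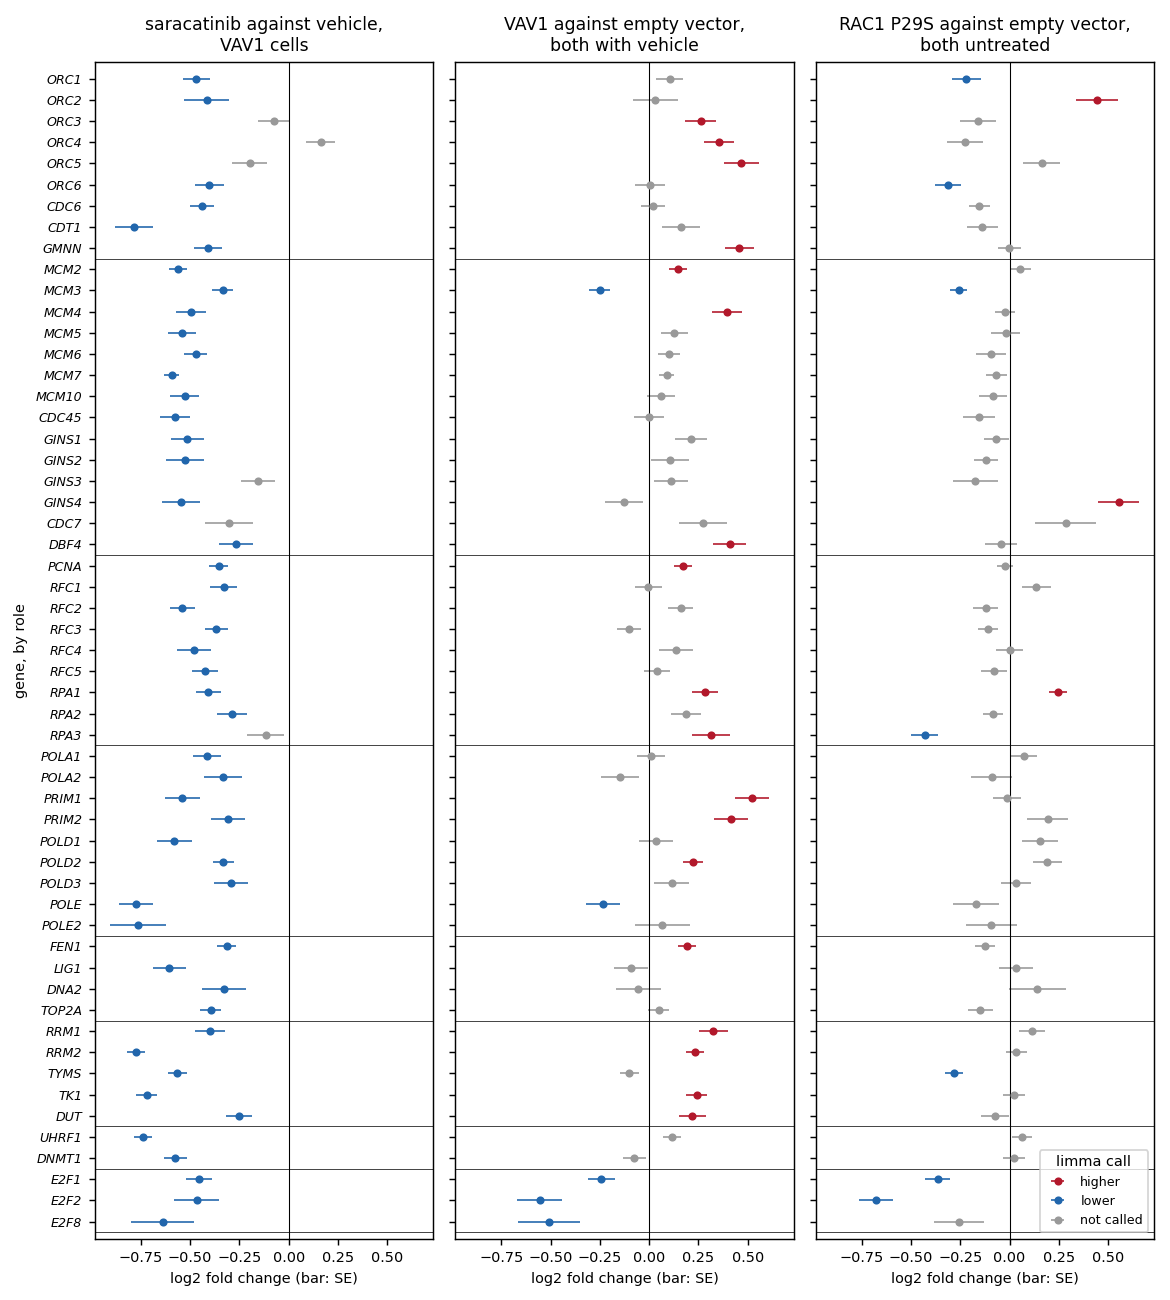
Log2 fold change of each gene (point) with its SE (bar) for saracatinib against vehicle, VAV1 against empty vector and RAC1 P29S against empty vector, coloured by the limma call. In the first panel 49 of 55 points are called lower and none higher, and in the third panel 45 of 55 were not called.

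The licensing genes divided into CDT1, CDC6, ORC1, ORC2, ORC6 and GMNN, which fell with saracatinib, and ORC3, ORC4 and ORC5, which did not pass the test. Thus 66.7% of them fell, against 19.1% of all genes. CDT1, which brings the MCM ring to the origin, had 500, 472 and 583 normalized counts with saracatinib, 934, 914 and 827 with vehicle in VAV1 cells, and 890, 788 and 719 in empty-vector cells. All saracatinib libraries lay below all others of the experiment, while the vehicle groups overlapped. CDT1 fell by 0.79 ± 0.10 on the log2 scale with saracatinib (0.58-fold, adjusted p = 3.06e-05, limma), which was the most negative of the 55 changes. Against empty-vector cells it fell by 0.62 ± 0.10 (adjusted p = 0.000178, limma). CDC6, the ATPase that works with CDT1, fell by 0.44 with saracatinib, and ORC1, the subunit of the origin recognition complex whose level varies over the cell cycle, fell by 0.47. The fall of ORC2, by 0.42 ± 0.11 (adjusted p = 0.0114, limma), was lost without VAV1 vehicle library 1 (0.0533).

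Geminin, encoded by GMNN, binds CDT1 and blocks relicensing. Its values were 636, 665 and 722 normalized counts with saracatinib, 956, 844 and 887 in VAV1 cells with vehicle, and 646, 666 and 643 in empty-vector cells. The VAV1 vehicle libraries were the highest and overlapped neither other group. GMNN rose by 0.46 ± 0.07 with VAV1 (adjusted p = 0.000205, limma) and fell by 0.41 ± 0.07 with saracatinib (adjusted p = 0.000638, limma). Its difference between saracatinib-treated VAV1 cells and empty-vector cells was 0.05 ± 0.07 (adjusted p = 0.629, limma).

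ORC3, ORC4 and ORC5 encode subunits of the origin recognition complex. ORC4 was at 1085, 1134 and 1056 normalized counts with saracatinib, 916, 945 and 1071 in VAV1 cells with vehicle, and 711, 805 and 772 in empty-vector cells. Both VAV1 groups lay above the empty-vector libraries, and they overlapped each other. ORC4 rose by 0.36 ± 0.07 with VAV1 (adjusted p = 0.00167, limma) and stood 0.52 ± 0.07 above empty-vector cells with saracatinib (adjusted p = 9.51e-05, limma), while its change with saracatinib alone was 0.16 ± 0.07 (adjusted p = 0.105, limma). ORC5 had 603, 588 and 641 normalized counts with saracatinib, 674, 684 and 745 in VAV1 cells with vehicle, and 460, 570 and 493 in empty-vector cells. The 3 groups of ORC5 values did not overlap, with the VAV1 vehicle libraries highest and the empty-vector libraries lowest. ORC5 rose by 0.47 ± 0.09 with VAV1 (adjusted p = 0.000695, limma). With saracatinib it stood 0.27 ± 0.09 above empty-vector cells (adjusted p = 0.0229, limma), a call that was lost without empty-vector library 1 (adjusted p = 0.0987, limma), empty-vector library 3 (0.0682) or saracatinib library 3 (0.0804). ORC3 rose by 0.26 ± 0.08 with VAV1 (adjusted p = 0.018, limma), a call lost without empty-vector library 3 (0.0578), VAV1 vehicle library 1 (0.057) or VAV1 vehicle library 3 (0.0828).

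In RAC1 P29S cells ORC2 rose (11.1% of the 9 licensing genes) while ORC6 and ORC1 fell (22.2%), against 15.6% and 15.5% of all genes. The other 6 licensing genes did not pass the test. ORC2 was at 534, 574 and 504 normalized counts in RAC1 P29S cells, against 370, 360 and 460 in untreated empty-vector cells, with no overlap (0.44 ± 0.11, adjusted p = 0.0104, limma). ORC6, the smallest subunit of the complex, had 1004, 1023 and 1072 in RAC1 P29S cells, against 1217, 1365 and 1270 in empty-vector cells. It fell by 0.31 ± 0.06 (adjusted p = 0.00445, limma). The fall of ORC1, by 0.22 ± 0.07 (adjusted p = 0.046, limma), was lost without any 1 of 5 of the 6 libraries (adjusted p = 0.0847 to 0.162), RAC1 P29S library 3 being the exception.

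All 6 genes of the MCM ring, MCM2 to MCM7, fell with saracatinib, by 0.33 (MCM3) to 0.59 (MCM7) on the log2 scale. Of the 14 helicase genes 12 fell (85.7%), against 19.1% of all genes. MCM7 had 5441, 5528 and 5570 normalized counts with saracatinib, 8419, 8240 and 8300 in VAV1 cells with vehicle, and 7987, 7934 and 7535 in empty-vector cells. All saracatinib libraries lay below both other groups, and the VAV1 vehicle libraries lay above the empty-vector ones. MCM7 fell by 0.59 ± 0.04 (0.663-fold, adjusted p = 6.61e-08, limma), and its change with VAV1 was 0.09 ± 0.04 (adjusted p = 0.0716, limma). MCM10, CDC45, GINS1, GINS2 and GINS4, which complete and switch on the helicase, fell by 0.51 to 0.58. GINS3, at -0.15 ± 0.09, and CDC7, the catalytic subunit of the kinase that fires origins, at -0.30 ± 0.12, did not pass the test (adjusted p = 0.182 and 0.0665, limma).

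With VAV1, MCM4, MCM2 and DBF4 rose (21.4% of the 14 helicase genes) and MCM3 fell (7.14%), against 23.6% and 20.1% of all genes. Neither share of called helicase genes exceeded the background, and 10 of the 14 did not pass the test. The libraries did not overlap in 7 of the 14 that were higher and 1 that was lower, against 28.2% and 24.5% of all genes. By this measure the share of higher genes was above the background. The rise of MCM2, by 0.15 ± 0.05 (adjusted p = 0.0188, limma), was lost without empty-vector library 3 (0.0735), VAV1 vehicle library 2 (0.0677) or VAV1 vehicle library 3 (0.055). An antisense gene shares 22.7% of the exonic bases of MCM2. DBF4, the activating subunit of CDC7, was at 660, 722 and 815 normalized counts with saracatinib, 924, 862 and 851 in VAV1 cells with vehicle, and 656, 623 and 708 in empty-vector cells. The VAV1 vehicle libraries lay above all others. DBF4 rose by 0.41 ± 0.08 with VAV1 (adjusted p = 0.0015, limma). Its fall of 0.27 ± 0.08 with saracatinib (adjusted p = 0.0234, limma) was lost without VAV1 vehicle library 1 (0.0825), saracatinib library 1 (0.106) or saracatinib library 2 (0.0593).

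MCM3 was the ring subunit whose gene fell in each of the 4 comparisons of groups. Its values were 2090, 2098 and 2059 normalized counts with saracatinib, 2540, 2646 and 2686 in VAV1 cells with vehicle, and 3102, 3353 and 2925 in empty-vector cells. In the untreated experiment it had 3300, 3244 and 3449 in RAC1 P29S cells, against 3978, 4024 and 3953 in empty-vector cells. No groups of an experiment overlapped, and the empty-vector libraries were highest in both. MCM3 fell by 0.25 ± 0.05 with VAV1 (adjusted p = 0.00184, limma), by 0.33 ± 0.05 with saracatinib (adjusted p = 0.000278, limma) and by 0.26 ± 0.04 with RAC1 P29S (adjusted p = 0.00142, limma). MCM4, another ring subunit, rose by 0.39 ± 0.08 with VAV1 (adjusted p = 0.00114, limma) and was at -0.02 ± 0.05 with RAC1 P29S.

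GINS4, a subunit of the GINS complex, fell with saracatinib and rose with RAC1 P29S. It had 286, 298 and 303 normalized counts with saracatinib, 425, 456 and 417 in VAV1 cells with vehicle, and 542, 423 and 461 in empty-vector cells. It had 625, 546 and 696 in RAC1 P29S cells, against 457, 394 and 416 in untreated empty-vector cells. Saracatinib libraries were lowest in the first experiment, and RAC1 P29S libraries were highest in the second without overlap. GINS4 fell by 0.55 ± 0.10 with saracatinib (adjusted p = 0.000634, limma) and rose by 0.55 ± 0.10 with RAC1 P29S (1.47-fold, adjusted p = 0.00246, limma). An antisense gene shares 21.2% of the exonic bases of GINS4 in GENCODE 29, and the strand setting of the quantification is not given in the sources used here, so this value is uncertain.

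The clamp loader genes RFC1 to RFC5 all fell with saracatinib, by 0.33 to 0.54, and so did PCNA, the clamp itself, by 0.36 ± 0.05 (adjusted p = 5.19e-05, limma). In the clamp and RPA group 88.9% of genes fell, against 19.1% of all genes. RFC2 was at 895, 969 and 854 normalized counts with saracatinib, 1349, 1276 and 1322 in VAV1 cells with vehicle, and 1206, 1197 and 1131 in empty-vector cells. The 3 groups did not overlap, with the VAV1 vehicle libraries highest. RFC2 fell by 0.54 ± 0.06 with saracatinib (adjusted p = 1.82e-05, limma). RFC3, another small subunit of the loader, had 1130, 1073 and 1073 with saracatinib, 1435, 1385 and 1406 in VAV1 cells with vehicle, and 1486, 1626 and 1432 in empty-vector cells, and the saracatinib libraries stood alone below the rest. RFC3 stood 0.47 ± 0.06 below empty-vector cells with saracatinib (adjusted p = 3.25e-05, limma).

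The RPA trimer coats single-stranded DNA. RPA1 and RPA2 fell with saracatinib, RPA1 and RPA3 rose with VAV1, and with RAC1 P29S RPA1 rose and RPA3 fell. In the clamp and RPA group 33.3% of genes rose with VAV1, against 23.6% of all genes. With RAC1 P29S 11.1% rose and 11.1% fell, against 15.6% and 15.5% of all genes. No test compared the 3 RPA genes with one another. RPA1, the large DNA-binding subunit, had 2232, 2344 and 2487 normalized counts with saracatinib, 3153, 3380 and 2853 in VAV1 cells with vehicle, and 2665, 2451 and 2576 in empty-vector cells. It had 3307, 3328 and 3468 in RAC1 P29S cells, against 2758, 2892 and 2867 in untreated empty-vector cells. Both constructs were thus above their empty-vector libraries without overlap. RPA1 rose by 0.28 ± 0.06 with VAV1 (adjusted p = 0.00289, limma) and by 0.25 ± 0.05 with RAC1 P29S (adjusted p = 0.00254, limma), and fell by 0.41 ± 0.06 with saracatinib (adjusted p = 0.000253, limma).

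RPA3, the smallest subunit, was at 914, 1090 and 990 normalized counts with saracatinib, 1201, 1039 and 1009 in VAV1 cells with vehicle, and 833, 986 and 794 in empty-vector cells. In RAC1 P29S cells it was at 966, 921 and 909, against 1348, 1189 and 1237 in untreated empty-vector cells. VAV1 libraries lay above and RAC1 P29S libraries below their empty-vector libraries, and the saracatinib libraries overlapped both other groups. RPA3 fell by 0.43 ± 0.07 with RAC1 P29S (adjusted p = 0.000783, limma). Its rise of 0.32 ± 0.10 with VAV1 (adjusted p = 0.0169, limma) was lost without empty-vector library 1 (0.0573), empty-vector library 3 (0.0741) or VAV1 vehicle library 1 (0.0777). RPA3 was the single gene of the clamp and RPA group that did not pass the test with saracatinib (-0.12 ± 0.10, adjusted p = 0.368, limma). RPA2, the middle subunit, fell by 0.29 ± 0.08 with saracatinib (adjusted p = 0.00977, limma), and was at 0.19 ± 0.08 with VAV1 and -0.08 ± 0.05 with RAC1 P29S (adjusted p = 0.0668 and 0.258, limma).

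All 9 polymerase and primase genes fell with saracatinib, by 0.29 (POLD3) to 0.78 (POLE), against 19.1% of all genes. None of the 9 passed the test with RAC1 P29S. At an unadjusted p under 0.05, 1 was higher there and none lower, against 20.5% and 20.7% of all genes. POLE, the catalytic subunit of the leading-strand polymerase epsilon, was at 869, 808 and 712 normalized counts with saracatinib, 1262, 1383 and 1438 in VAV1 cells with vehicle, and 1506, 1763 and 1537 in empty-vector cells. The groups stood in that order, lowest to highest, with no overlap. POLE changed by -0.78 ± 0.08 with saracatinib (0.584-fold, adjusted p = 1.06e-05, limma) and by -1.01 ± 0.08 against empty-vector cells (0.497-fold, adjusted p = 7.53e-07, limma). With VAV1 alone it fell by 0.23 ± 0.08 (adjusted p = 0.039, limma), a call lost without empty-vector library 2 (0.157), empty-vector library 3 (0.0522), VAV1 vehicle library 1 (0.145) or VAV1 vehicle library 2 (0.064). POLE2, its second subunit, fell by 0.76 ± 0.14 with saracatinib, and POLD1, the catalytic subunit of polymerase delta, fell by 0.58 ± 0.09. Of the smaller falls, that of POLD3 (adjusted p = 0.0191, limma) was lost without VAV1 vehicle library 1 (0.0735) or 3 (0.0599) or saracatinib library 1 (0.059) or 3 (0.0785). Those of POLA2 and PRIM2 (adjusted p = 0.0157 and 0.0139, limma) were lost without VAV1 vehicle library 1 (0.0716 and 0.0516) or saracatinib library 2 (0.0693 and 0.0583). Another gene model on the same strand shares 35.1% of the exonic bases of POLA2.

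PRIM1, the catalytic subunit of primase, rose with VAV1 more than any other of the 55 genes. It had 663, 636 and 746 normalized counts with saracatinib, 1105, 907 and 965 in VAV1 cells with vehicle, and 654, 737 and 676 in empty-vector cells. The VAV1 vehicle libraries were the highest, and the saracatinib and empty-vector libraries overlapped. PRIM1 rose by 0.52 ± 0.09 with VAV1 (1.44-fold, adjusted p = 0.000328, limma) and fell by 0.54 ± 0.09 with saracatinib (adjusted p = 0.000326, limma). The difference between saracatinib-treated VAV1 cells and empty-vector cells was -0.02 ± 0.09 (adjusted p = 0.895, limma). Another gene model on the same strand shares 14.9% of the exonic bases of PRIM1, so reads may be divided between them. PRIM2, the regulatory subunit of primase, rose by 0.42 ± 0.09 with VAV1 (adjusted p = 0.00172, limma), and POLD2, a subunit of polymerase delta, rose by 0.22 ± 0.05 (adjusted p = 0.00312, limma).

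Genes of strand maturation and topology all fell with saracatinib, against 19.1% of all genes. LIG1, the ligase that joins Okazaki fragments, was at 564, 516 and 622 normalized counts with saracatinib, 793, 909 and 884 in VAV1 cells with vehicle, and 985, 904 and 865 in empty-vector cells. Saracatinib libraries lay apart, below the overlapping vehicle groups. LIG1 fell by 0.60 ± 0.09 with saracatinib (adjusted p = 0.0001, limma) and stood 0.70 ± 0.09 below empty-vector cells (a log2 fold change of -0.70, adjusted p = 2.55e-05, limma). TOP2A, the topoisomerase that separates the daughter strands, fell by 0.40 ± 0.05 with saracatinib (adjusted p = 5.98e-05, limma). FEN1, the flap nuclease, had 2852, 2872 and 2678 with saracatinib, 3500, 3387 and 3560 in VAV1 cells with vehicle, and 3053, 3145 and 2941 in empty-vector cells, 3 groups without overlap. It rose by 0.19 ± 0.05 with VAV1 (adjusted p = 0.00457, limma). The fall of DNA2, a nuclease and helicase, by 0.33 ± 0.11 (adjusted p = 0.0352, limma), was lost without any 1 of 5 of the 6 libraries (adjusted p = 0.0574 to 0.125), saracatinib library 2 being the exception.

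All 5 genes of nucleotide supply fell with saracatinib, against 19.1% of all genes. With VAV1 4 of them, all but TYMS, rose (80%), against 23.6% of all genes. RRM2, the regulated subunit of ribonucleotide reductase, was at 3603, 3564 and 3343 normalized counts with saracatinib, 6078, 6045 and 5840 in VAV1 cells with vehicle, and 5240, 4936 and 5106 in empty-vector cells. The VAV1 vehicle libraries were highest and the saracatinib libraries lowest, with no overlap. RRM2 rose by 0.23 ± 0.04 with VAV1 (adjusted p = 0.000781, limma) and fell by 0.77 ± 0.04 with saracatinib (0.585-fold, adjusted p = 2.15e-08, limma). RRM1, the large subunit of the same enzyme, had 2333, 1786 and 2038 with saracatinib, 2696, 2646 and 2724 in VAV1 cells with vehicle, and 2147, 2165 and 2120 in empty-vector cells. Its saracatinib libraries lay on both sides of the empty-vector libraries. RRM1 rose by 0.33 ± 0.08 with VAV1 (adjusted p = 0.0033, limma) and fell by 0.40 ± 0.08 with saracatinib (adjusted p = 0.00104, limma).

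TK1, the thymidine salvage kinase, fell by 0.72 ± 0.05 with saracatinib (adjusted p = 2.38e-07, limma) and rose by 0.24 ± 0.05 with VAV1 (adjusted p = 0.00213, limma). TYMS, which makes thymidylate, was at 2003, 2029 and 1992 normalized counts with saracatinib, 3094, 2838 and 2986 in VAV1 cells with vehicle, and 3313, 3187 and 3061 in empty-vector cells. In the untreated experiment it was at 3993, 3968 and 4085 in RAC1 P29S cells, against 5022, 4657 and 4973 in empty-vector cells. The saracatinib and RAC1 P29S libraries were the low ones, without overlap, and the vehicle groups overlapped. TYMS stood -0.67 ± 0.05 from empty-vector cells with saracatinib (adjusted p = 1.95e-07, limma) and fell by 0.28 ± 0.05 with RAC1 P29S (adjusted p = 0.001, limma). ENOSF1 on the opposite strand shares 39.1% of the exonic bases of TYMS, a gene model on the same strand shares 20.2% of those of RRM2, and DUT has 8 named pseudogenes, so these 3 values are uncertain. DUT, which removes dUTP, rose by 0.22 ± 0.07 with VAV1 (adjusted p = 0.0186, limma), a call lost without empty-vector library 3 (0.073) or VAV1 vehicle library 1 (0.0891).

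Maintenance methylation copies CpG methylation onto the new strand, through UHRF1, which recognises hemimethylated sites, and the methyltransferase DNMT1. UHRF1 had 1933, 1887 and 1964 normalized counts with saracatinib, 3146, 3236 and 3260 in VAV1 cells with vehicle, and 3085, 2929 and 2875 in empty-vector cells. DNMT1 had 3334, 3029 and 3201 with saracatinib, 4334, 5088 and 4843 in VAV1 cells with vehicle, and 5020, 5149 and 4823 in empty-vector cells. For both genes the saracatinib libraries lay below all the others. UHRF1 fell by 0.74 ± 0.05 with saracatinib (0.6-fold, adjusted p = 4.79e-08, limma), and DNMT1 fell by 0.57 ± 0.06 (adjusted p = 6.01e-06, limma). Neither gene passed the test with VAV1 or with RAC1 P29S.

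E2F1 and E2F2 activate genes of S phase, and E2F8 represses them. All 3 fell with saracatinib and also with VAV1, and E2F1 and E2F2 fell with RAC1 P29S. Over all genes, 19.1% fell with saracatinib, 20.1% with VAV1 and 15.5% with RAC1 P29S. E2F2, whose promoter is shown above, had 138, 146 and 151 normalized counts with saracatinib, 194, 219 and 189 in VAV1 cells with vehicle, and 322, 295 and 270 in empty-vector cells. It had 261, 278 and 278 in RAC1 P29S cells, against 420, 440 and 448 in untreated empty-vector cells. In both experiments the empty-vector libraries were highest, and no groups overlapped. E2F2 fell by 0.56 ± 0.11 with VAV1 (0.68-fold, adjusted p = 0.00131, limma), by 0.47 ± 0.11 with saracatinib (adjusted p = 0.00526, limma) and by 0.68 ± 0.09 with RAC1 P29S (0.625-fold, adjusted p = 0.000209, limma).

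E2F1 showed the same order of groups, at 589, 664 and 587 normalized counts with saracatinib, 835, 871 and 815 in VAV1 cells with vehicle, and 988, 993 and 999 in empty-vector cells. In RAC1 P29S cells it was at 1391, 1410 and 1455, against 1863, 1939 and 1688 in untreated empty-vector cells. No groups of an experiment overlapped. E2F1 fell by 0.24 ± 0.07 with VAV1 (adjusted p = 0.0108, limma), by 0.46 ± 0.07 with saracatinib (adjusted p = 0.000158, limma) and by 0.37 ± 0.06 with RAC1 P29S (adjusted p = 0.00152, limma). E2F8 was at 70.9, 89.2 and 85.7 with saracatinib, 110, 143 and 132 in VAV1 cells with vehicle, and 196, 155 and 198 in empty-vector cells, also without overlap. Against empty-vector cells it stood -1.15 ± 0.16 away with saracatinib (0.452-fold, adjusted p = 6.9e-05, limma), the most negative value of the 55 genes in that comparison. Its fall of 0.51 ± 0.16 with VAV1 (adjusted p = 0.0193, limma) was lost without empty-vector library 1 (0.0676), empty-vector library 3 (0.0729) or VAV1 vehicle library 1 (0.0839). The E2F genes thus fell with VAV1 while 18 of the other 52 genes rose and 2, MCM3 and POLE, fell. Over all genes, 23.6% rose and 20.1% fell.

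The effect of VAV1 was compared with that of RAC1 P29S by the difference of their log2 fold changes over the 15 libraries and the 13810 genes tested in both experiments. This difference was positive in 12 of the 55 genes and negative in 1, with 42 that did not pass the test, where 15.8% of all genes passed, 8.14% positive and 7.7% negative. Its median was 0.16 for the 55 genes and 0.01 for all genes. The experiments were scaled separately and differ in vehicle, so the difference compares effects and not levels. Without VAV1 vehicle library 1 the number of positive genes was 7, and without untreated empty-vector library 3 the number of negative genes was 2. The calls of ORC1, ORC3, ORC6, PCNA and RFC2 were each lost on leaving out 1 of several libraries, while the other 8 kept theirs when any 1 library was left out.

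RPA3 had the largest difference, 0.75 ± 0.13 (adjusted p = 0.000678, limma), with a log2 fold change of 0.32 for VAV1 and -0.43 for RAC1 P29S. ORC4 differed by 0.58 ± 0.12 (adjusted p = 0.00299, limma), from 0.36 for VAV1 and -0.23 for RAC1 P29S, the second of which did not pass its own test (adjusted p = 0.085, limma). In RAC1 P29S cells ORC4 was at 744, 686 and 589 normalized counts, against 749, 795 and 813 in empty-vector cells. PRIM1 differed by 0.53 ± 0.12 (adjusted p = 0.00509, limma) and GMNN by 0.46 ± 0.09 (adjusted p = 0.00198, limma). In RAC1 P29S cells PRIM1 had 848, 910 and 837 and GMNN 1144, 1141 and 1104 normalized counts, against 911, 812 and 895 for PRIM1 and 1152, 1130 and 1110 for GMNN in empty-vector cells. Both genes overlapped between these groups.

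FEN1, at 4798, 4562 and 4692 normalized counts in RAC1 P29S cells, against 5103, 5394 and 4817 in empty-vector cells, differed by 0.32 ± 0.07 (adjusted p = 0.0041, limma). GINS4 was the single gene with a negative difference, -0.68 ± 0.14 (adjusted p = 0.0039, limma), from -0.13 for VAV1 and 0.55 for RAC1 P29S. No polymerase other than PRIM1 passed this test, and neither did any gene of nucleotide supply, maintenance methylation or the E2F factors. At an unadjusted p under 0.05, 4 of the 5 nucleotide genes had a positive difference and none a negative one, and no methylation or E2F gene passed, against 15.5% positive and 13.9% negative of all genes.

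**Figure D3:**
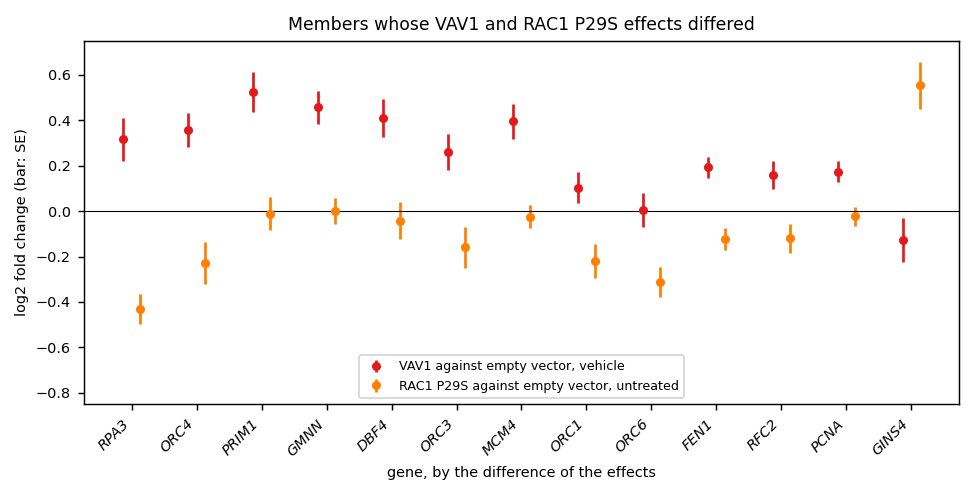
Log2 fold change with its SE for VAV1 against empty vector (red) and RAC1 P29S against empty vector (orange) in the 13 genes whose effects differed, ordered by the difference. VAV1 lies above RAC1 P29S in 12 genes, from 0.75 apart in RPA3 to 0.20 in PCNA, and below it in GINS4.

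Other genes of replication were read from a list of 36, which covers accessory subunits, fork protection, chromatin assembly and further nucleotide enzymes. With saracatinib 24 of the 36 fell (66.7%) and 2 rose (5.56%), against 19.1% and 18.3% of all genes. Among those with the lowest adjusted p-values, the log2 fold change was -0.73 for CTPS1, which makes CTP, -0.63 for DTYMK, which phosphorylates thymidylate, -0.63 for the histone chaperone ASF1B and -0.56 for the fork protection factor TIMELESS (adjusted p = 1.14e-06, 5.61e-06, 1.15e-06 and 2.43e-06, limma). The 2 that rose were POLD4, the small subunit of polymerase delta, and RRM2B, the p53-regulated subunit of ribonucleotide reductase, which were named after their values were seen. POLD4 rose by 0.54 ± 0.09 (adjusted p = 0.000595, limma) and RRM2B by 0.31 ± 0.08 (adjusted p = 0.0065, limma). With VAV1 11 of the 36 rose (30.6%) and 4 fell (11.1%), against 23.6% and 20.1% of all genes. With RAC1 P29S 2 rose (5.56%) and 5 fell (13.9%), against 15.6% and 15.5% of all genes, so neither share exceeded the background. SAMHD1, which breaks down deoxynucleotides, rose with both constructs, by 0.73 ± 0.06 with VAV1 (adjusted p = 7.33e-07, limma) and by 0.87 ± 0.07 with RAC1 P29S (adjusted p = 5.88e-06, limma). It was at 989, 966 and 930 normalized counts with saracatinib, 992, 960 and 926 in VAV1 cells with vehicle, and 592, 586 and 555 in empty-vector cells, so both VAV1 groups lay above the empty-vector libraries and overlapped each other.

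A list of 30 mitotic and G2 genes held 24 that fell with saracatinib (80%), against 19.1% of all genes, and none that rose, with none higher at an unadjusted p under 0.05 either. CDC20, the activator of the anaphase-promoting complex, fell by 0.89 ± 0.05 (adjusted p = 1.03e-08, limma), and TPX2, a spindle assembly factor, by 0.74 ± 0.04 (adjusted p = 1.08e-08, limma). With VAV1 19 of the 30 rose (63.3%) and none fell, against 23.6% and 20.1% of all genes, with CDC20 at 0.51 ± 0.05 (adjusted p = 1.51e-06, limma) and cyclin A2 (CCNA2) at 0.41 ± 0.05 (adjusted p = 2.08e-05, limma). With RAC1 P29S 3 rose (10%) and 10 fell (33.3%), against 15.6% and 15.5% of all genes, among them CDC20 at 0.44 ± 0.04 (adjusted p = 4.05e-05, limma) and the centromere protein CENPF at -0.40 ± 0.05 (adjusted p = 0.000247, limma). The difference of effects was positive in 19 of the 30 mitotic genes (63.3%) and negative in none, against 8.14% and 7.7% of all genes, with 1 negative at an unadjusted p under 0.05. CCNA2, with the lowest adjusted p of the list, differed by 0.47 ± 0.07 (adjusted p = 0.0004, limma), and CDC25C, a phosphatase that activates CDK1, had the largest difference, 0.57 ± 0.13 (adjusted p = 0.00692, limma). Shares of cells in each phase were not measured, and their part in these results was not tested.

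**Figure D4:**
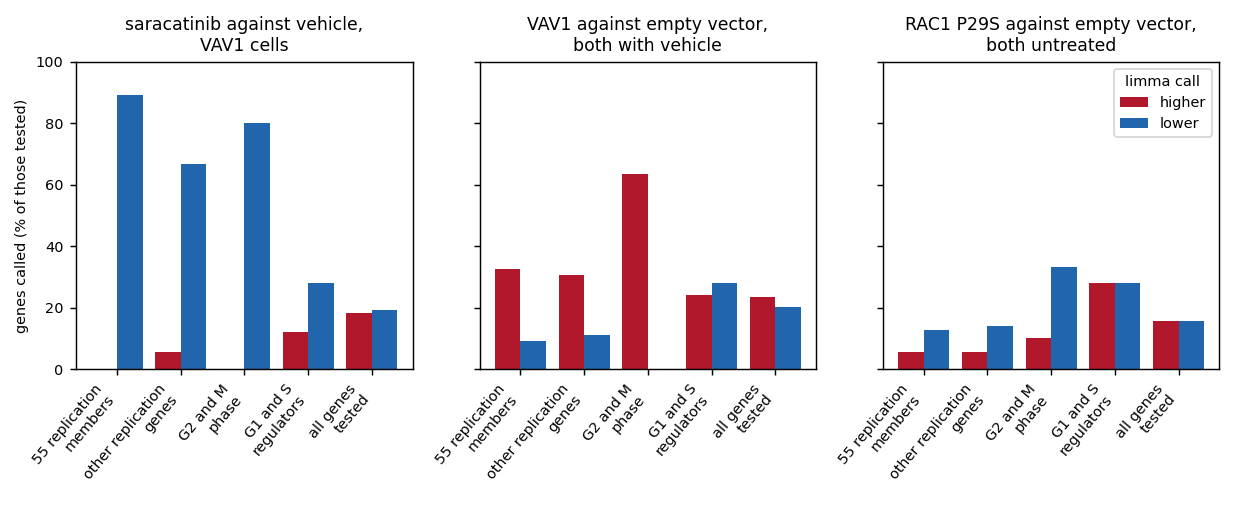
Percent of the genes tested in each list that were called higher (red) or lower (blue) by limma in 3 comparisons, beside all genes tested. With saracatinib the lower calls reach 89.1% of the 55 genes and 80% of the mitotic genes, against 19.1% of all genes, and with RAC1 P29S they are 12.7% and 33.3%, against 15.5%.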

How the data were processed

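RNA-seq libraries of A375 cells were analysed from the values that the authors deposited, in which each library has its own table of log2 values by gene symbol, as the log2 of a normalized count plus 1. Per the submitters' processing notes, kallisto, DESeq2 and the GRCh38 build were used. Versions, settings, strand handling and the annotation release are not given in the sources used here. Values were scaled within each experiment, so groups were tested within an experiment. Recomputed size factors were 0.9979 to 1.0118. The total of normalized counts says nothing of depth, so no counting interval is given.

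Samples were grouped by their titles. The fit was limma 3.58.1 in R 4.3.3 with a group-means model. Its variances were moderated robustly along a trend with the mean level, tests were two-sided, and Benjamini-Hochberg adjusted p-values had to be under 0.05. The 9 vehicle and saracatinib libraries shared 1 fit and the 6 untreated libraries another. The difference of effects used all 15 libraries. Genes with 10 or more normalized counts in 3 or more libraries entered. The procedure was run on simulated data with independent noise and a smaller share of changed genes than was called here. Because of these settings, that run is not used as support for the calls. The titles number the libraries without stating a pairing. Residuals of libraries with the same number correlated at -0.0547 to 0.0125, against -0.0315 to 0.0491 for other pairs. No pairing by number showed in these values, which cannot establish that there was none. The main model has no block.

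The members and the gene lists were chosen with earlier results of these data known. Values in every library are given for the called gene with the largest absolute change of each role in each comparison and for called genes that moved against most of their role. GMNN and others in the text were added for their role. From the further lists, genes with the lowest adjusted p are named. Overlaps of gene models come from GENCODE 29 and promoters from RefSeq. Alternatives were a test against a fold of 1.2, leaving out each library in turn, a replicate block, 4 scalings, pseudocounts of 4 and 16, 2 filters, fewer or more libraries per fit and a plain variance model.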

Additional observations from a re-analysis of the deposited data

Results flagged for a closer look

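The effect of VAV1 differed from that of RAC1 P29S in 13 of the 55 replication genes by limma's test of the difference itself. Over all genes, 15.8% passed this test. The difference, VAV1 minus RAC1 P29S on the log2 scale, was 0.58 in ORC4, 0.46 in GMNN, 0.42 in ORC3, 0.32 in ORC1 and 0.32 in ORC6 among the licensing genes. It was 0.45 in DBF4, 0.42 in MCM4 and -0.68 in GINS4 among the helicase genes, and 0.75 in RPA3, 0.28 in RFC2 and 0.20 in PCNA among the clamp and RPA genes. PRIM1 and FEN1 differed by 0.53 and 0.32. When any 1 of the 12 libraries behind the difference was left out, the call was lost in 9 cases for PCNA (adjusted p = 0.0501 to 0.0881), 8 for ORC1 (0.058 to 0.0985), 7 for RFC2 (0.0527 to 0.0975), 6 for ORC6 (0.058 to 0.0878) and 5 for ORC3 (0.0502 to 0.0612), all by limma.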

How the results depend on the processing

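No called gene changed sign under any alternative run. Against a fold of 1.2, 22 of the 55 genes were lower with saracatinib, where 1744 of all 14410 genes passed. With VAV1 1 was higher (PRIM1) and 0 lower, where 2618 of 14410 passed. With saracatinib against empty vector 1 was higher and 20 lower, where 2438 of 14410 passed. With RAC1 P29S 0 were higher and 1 (E2F2) was lower, where 1639 of 14036 passed. For the difference of effects 1 was positive (RPA3) and 0 negative, where 379 of 13810 passed. These counts over all genes pool both directions. Only the saracatinib comparisons had a larger share of the 55 genes than of all genes. Leaving out 1 library gave 0 to 1 higher and 44 to 49 lower with saracatinib, where 4552 to 5460 of all genes passed in either direction. It gave 14 to 20 higher and 3 to 5 lower with VAV1 (5382 to 6249 of all genes). For saracatinib against empty vector it gave 1 to 3 higher and 35 to 38 lower (5321 to 6224). For RAC1 P29S it gave 3 to 5 higher and 6 to 8 lower (3309 to 4105). For the difference it gave 7 to 14 positive and 1 to 2 negative (1695 to 2168). A replicate block, which the check of pairing gives no ground for, gave 50 lower with saracatinib and 19 higher with VAV1. Over all genes, 5061 and 5951 passed there in either direction. The block gave 6 lower with RAC1 P29S and 8 positive for the difference. Under every setting but the fold test, 43 of 49 calls were kept with saracatinib, 17 of 23 with VAV1, 36 of 39 with saracatinib against empty vector, 9 of 10 with RAC1 P29S and 8 of 13 for the difference. Some genes not called gained a call in 1 or more settings. These were 2 of 6 with saracatinib, 6 of 32 with VAV1 and 4 of 16 with saracatinib against empty vector. They were 7 of 45 with RAC1 P29S, POLD2 among them, and 10 of 42 for the difference, with RRM2, TYMS, TK1 and DUT among them. Depth is not known, so no limit from counting can be given, and 3 libraries per group limit what the tests can show.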

Other observations

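The regulators of entry into S phase were read from a list of 27 genes, of which 25 were tested. CDKN1A, the p21 inhibitor of cyclin-dependent kinases, had 3558, 3826 and 3440 normalized counts with saracatinib, 2194, 2262 and 2367 in VAV1 cells with vehicle, and 1441, 1346 and 1310 in empty-vector cells. The groups did not overlap. CDKN1A rose by 0.74 ± 0.06 with VAV1 (adjusted p = 2.26e-07, limma), by 0.66 ± 0.06 with saracatinib (adjusted p = 1.06e-06, limma) and by 0.84 ± 0.05 with RAC1 P29S (adjusted p = 1.32e-06, limma). MYBL2, a transcription factor of the S and G2 programme, fell by 1.02 ± 0.05 with saracatinib (adjusted p = 7.89e-09, limma), and CDK6, a cyclin D kinase, fell by 0.86 ± 0.07 (adjusted p = 6.25e-07, limma). MYBL2 had 1371, 1473 and 1436 normalized counts with saracatinib, against 2987, 2877 and 2810 with vehicle in VAV1 cells. E2F7, a repressor of E2F target genes like E2F8, rose by 0.77 ± 0.09 with VAV1 (adjusted p = 1.14e-05, limma) and by 0.76 ± 0.08 with RAC1 P29S (adjusted p = 6.3e-05, limma).

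In this list 3 genes rose (12%) and 7 fell (28%) with saracatinib, against 18.3% and 19.1% of all genes. With VAV1 6 rose (24%) and 7 fell (28%), against 23.6% and 20.1% of all genes, and with RAC1 P29S 7 rose and 7 fell (28% each), against 15.6% and 15.5%. The effect of VAV1 was above that of RAC1 P29S in 1 gene (4%) and below it in 3 (12%), against 8.14% and 7.7% of all genes. Cyclin D1 (CCND1) fell by 0.37 ± 0.06 with VAV1 (adjusted p = 0.000119, limma) and rose by 0.33 ± 0.07 with RAC1 P29S (adjusted p = 0.0061, limma), a difference of -0.70 ± 0.10 (adjusted p = 0.000107, limma). It had 5473, 5290 and 5339 normalized counts in VAV1 cells with vehicle, against 7678, 6586 and 6619 in empty-vector cells, and 8596, 8369 and 8626 in RAC1 P29S cells, against 6916, 7556 and 6023 in empty-vector cells. The inhibitor CDKN2C fell by 0.47 ± 0.08 with VAV1 (adjusted p = 0.000315, limma) and by 0.80 ± 0.06 with RAC1 P29S (adjusted p = 5.07e-06, limma), and rose by 0.63 ± 0.08 with saracatinib (adjusted p = 3.12e-05, limma).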
